A study of Mus musculus with 9 samples.

Results

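The genes described here are 10 genes of endoplasmic reticulum (ER) stress and protein folding, namely Hspa5, Hsp90b1, Pdia4, Sdf2l1, Manf, Dnajb9, Herpud1, Xbp1, Atf4 and Ddit3. They were fixed by symbol, and each symbol was matched to an Ensembl mouse gene identifier of the deposited table. All 10 had an entry, of 13588 entries in all. Their expression was described across 9 libraries, and the question was whether libraries rich in antibody or vector transcript showed an unfolded protein response.

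The libraries came from male C57/BL6 mice (C57BL/6J in the paper) homozygous for a floxed Snord116 allele (B6(Cg)-Snord116tm1Uta/J). The controls carried this genotype too. Mice of 10 to 12 weeks of age received bilateral injections of an adeno-associated virus (AAV) into the mediobasal hypothalamus, and brains were frozen 10 weeks later. In 3 mice the virus carried GFP (AAV-GFP) and in 6 it carried Cre recombinase (AAV-Cre), which can delete the floxed Snord116 genes. In a separate set of injected mice, the paper measured a partial loss of Snord116 expression in this region. The AAV-Cre mice formed an obese and a nonobese subset of 3 each by weight gain. Each library held the RNA of a single mouse, cut by laser from the region in which adjacent sections stained for Cre, or from a matched region in AAV-GFP mice. The vectors limited the comparison, because Cre was driven by the CAG promoter and GFP by the CMV promoter, and the AAV-Cre stock had the higher titre. AAV-Cre and AAV-GFP mice therefore differed in promoter, dose and transgene as well as in the deletion, and these cannot be told apart. AAV-Cre reached whatever cells the virus entered, and no cell type was selected.

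The ER folds secreted and membrane proteins with the help of chaperones, disulfide isomerases and their cofactors. When unfolded protein accumulates, the sensors IRE1, PERK and ATF6 raise these chaperones and the degradation machinery through XBP1, ATF4 and cleaved ATF6, a program called the unfolded protein response. Cells that secrete large amounts of protein, such as antibody-producing plasma cells, carry a large ER with high chaperone levels as part of their normal function. The activating steps (splicing of Xbp1 mRNA, phosphorylation of eIF2alpha and cleavage of ATF6) are not visible in reads counted per gene.

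Values are given as signal, a CPM-like measure of reads that the authors computed on a library size scaled with the TMM factors of edgeR. Libraries held between 3929672 and 5766994 reads on the listed entries, and 3 reads corresponded to a signal between 0.525 and 0.786 (counting error only). The sample labels contradicted each other on the AAV-Cre subsets, since samples with obese in the title were given a nonobese weight and the other AAV-Cre samples an obese one. Below, "labelled obese" and "labelled nonobese" refer to the weight given, not to the title.

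The 2 libraries of replicates 1 and 3 labelled obese stood apart in antibody transcript. Igkc, the kappa light chain constant region, had 9220 and 17359 reads there. Replicate 2 labelled obese had 230 Igkc reads, the mice labelled nonobese had 106, 95 and 143, and the AAV-GFP mice had 6, 0 and 4. Of vector transcript, Cre had 5912 and 1011 reads in replicates 1 and 3 labelled obese and 37704 in replicate 2. The mice labelled nonobese had 26539, 19611 and 33105 Cre reads, and the AAV-GFP mice 1, 5 and 0. Gfp reads numbered 317, 350 and 323 in AAV-GFP mice and 0 in each AAV-Cre mouse, so both transgenes matched the treatment labels. The Snord116 genes were not analysed here. Of 10 plasma and B cell markers in the table, Cd79a had no signal outside replicates 1 and 3 labelled obese. Irf4 and Mzb1 had none in the other AAV-Cre mice. Sdc1 differed, with a signal of 0.675 in replicate 1 labelled obese, 5.90 in replicate 2 and 19.3 in replicate 3. The summed signal of these 10 markers was 2.72 to 9.38 in AAV-GFP mice, 167 to 9189 in mice labelled obese and 42.7 to 117 in mice labelled nonobese. Neuronal markers (6 of 6 in the table) summed to 1958 to 2104 in AAV-GFP mice and 2234 to 2465 in mice labelled nonobese. In mice labelled obese the neuronal sums were 1642 and 1575 in replicates 1 and 3 and 2283 in replicate 2. Replicates 1 and 3 labelled obese thus had the lowest neuronal sums of the 9 libraries. Snap25, Syt1, Rbfox3 and Nefl were lowest in these 2 libraries. The other neuronal markers were not, since Stmn2 was highest of the 9 libraries in replicate 1 labelled obese (246) and Tubb3 in replicate 3 (217). Of 9 markers of the mediobasal hypothalamus, Agrp and Nr5a1 were at 0 in replicates 1 and 3 labelled obese. Nr5a1 was also at 0 in replicate 3 of AAV-GFP and of the mice labelled nonobese. Th went the other way and was highest of the 9 libraries in replicates 1 and 3 labelled obese, at 27.4 and 24.9. The 9 markers summed to 327 and 148 in these 2 libraries, within the range of 130 to 587 in AAV-GFP mice.

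Promoter windows of these genes were searched for known response elements of ER stress. The windows with a match are shown first, together with that of Pdia4. The ER stress response element (ERSE, CCAAT and CCACG with 9 bases of any kind between them) is bound by NF-Y and ATF6, and ERSE-II (ATTGG and CCACG with 1 base between them) by ATF6 and XBP1. RefSeq windows of 300 bases on GRCm38.p6, 250 before and 50 after each start site, were given for 9 of the 10 genes, Manf being the exception. Both strands were searched. The ERSE was found in the windows of Hspa5 and Hsp90b1, against 0.119% of all 32851 windows, and ERSE-II in that of Herpud1, against 0.0365%. The core of the ATF4 composite element, TGATGCAA, was found only in the window of Herpud1 among the 9 (0.895% of all windows). The core of the unfolded protein response element, TGACGTGG, was in none of the 9 (0.676% of all windows). No exact match was found in the window of Pdia4, the only member whose difference between the AAV-Cre subsets passed the test. This window was set by the RefSeq start site and lay wholly upstream of the start in the gene annotation (47813430, minus strand). The bases next to that annotated start were therefore not searched. Inexact matches were not searched for. Capitals mark the matches in the following windows, each written 5′ to 3′ on the strand of its gene.
Hspa5, chr2:34771840-34772139, plus strand, ERSE at position -65 from the start site: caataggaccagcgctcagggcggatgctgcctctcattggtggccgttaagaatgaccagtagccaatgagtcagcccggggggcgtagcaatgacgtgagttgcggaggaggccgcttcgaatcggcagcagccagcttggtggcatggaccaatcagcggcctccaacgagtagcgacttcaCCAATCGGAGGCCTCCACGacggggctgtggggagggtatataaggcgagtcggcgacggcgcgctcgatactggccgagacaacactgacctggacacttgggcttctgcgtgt
Hsp90b1, chr10:86705395-86705694, minus strand, ERSE at -212 and, on the opposite strand, at -107: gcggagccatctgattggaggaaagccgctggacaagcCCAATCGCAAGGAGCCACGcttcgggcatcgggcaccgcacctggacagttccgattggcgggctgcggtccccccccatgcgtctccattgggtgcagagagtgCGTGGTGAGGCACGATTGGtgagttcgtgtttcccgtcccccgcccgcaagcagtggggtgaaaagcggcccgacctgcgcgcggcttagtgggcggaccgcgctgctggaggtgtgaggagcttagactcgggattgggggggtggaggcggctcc
Herpud1, chr8:94386179-94386478, plus strand, ATF4 core on the opposite strand at -112 and ERSE-II at -52: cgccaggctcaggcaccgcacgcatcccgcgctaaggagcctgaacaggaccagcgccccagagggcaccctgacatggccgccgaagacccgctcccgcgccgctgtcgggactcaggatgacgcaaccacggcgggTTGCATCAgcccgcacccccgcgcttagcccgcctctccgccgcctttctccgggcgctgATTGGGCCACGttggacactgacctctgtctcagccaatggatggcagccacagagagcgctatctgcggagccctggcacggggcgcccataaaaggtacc
Pdia4, chr6:47813463-47813762, minus strand, no match: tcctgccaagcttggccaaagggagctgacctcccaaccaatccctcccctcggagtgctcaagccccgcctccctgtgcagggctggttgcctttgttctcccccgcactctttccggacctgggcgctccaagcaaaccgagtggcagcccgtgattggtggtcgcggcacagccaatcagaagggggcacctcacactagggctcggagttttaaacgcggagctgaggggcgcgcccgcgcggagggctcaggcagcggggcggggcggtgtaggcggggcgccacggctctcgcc

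In AAV-GFP mice Hsp90b1, Hspa5 and Pdia4 were the most abundant of the 10 genes when signal was divided by exon length. Hsp90b1 had a mean of 92.6 signal per kb and Hspa5 80.5, and their ranges over the 3 mice (85.2 to 100.6 and 73.2 to 85.5) overlapped. Pdia4 followed at 42.3 and Atf4 at 32.0, each below the range of the gene before it. Herpud1 (21.4), Xbp1 (16.1), Dnajb9 (14.0), Ddit3 (13.1) and Manf (12.2) formed a series in which each gene overlapped the next. Sdf2l1 was the least abundant, at a mean of 5.40 signal per kb, below the range of Manf. Exon lengths came from the annotation, and exon overlaps with neighbours were short, the longest being 415 bases of Hsp90b1 (10.3% of its exon length) with a pseudogene on the opposite strand.

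The ER chaperones were higher in some mice labelled obese. Hspa5 (BiP, the HSP70 of the ER lumen, chr2:34771970-34777547) had a signal of 362, 350.0 and 309.8 in AAV-GFP mice, 388, 365 and 414 in mice labelled obese, and 276, 321 and 360.4 in mice labelled nonobese. Each mouse labelled obese lay above each of the other 6 mice, but by little, since the highest value was 1.504-fold the lowest. The log2 FC of mice labelled obese against AAV-GFP was 0.19 (SE 0.16, FDR = 0.732, limma), and the difference did not pass the test.

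Hsp90b1 (GRP94, the HSP90 of the ER lumen, chr10:86690209-86705509) had a signal of 344, 406 and 371 in AAV-GFP mice, 666, 383 and 561 in mice labelled obese, and 471, 391 and 439 in mice labelled nonobese. Replicates 1 and 3 labelled obese were the highest of the 9 libraries, whereas replicate 2 lay within the AAV-GFP range. Against AAV-GFP the log2 FC of mice labelled obese was 0.49 (SE 0.17, unadjusted p = 0.0098, FDR = 0.311, limma). It depended on which mouse labelled obese was left out, at 0.71 (FDR = 0.00618) without replicate 2, 0.32 (FDR = 0.654) without replicate 1 and 0.44 (FDR = 0.519) without replicate 3. Without replicates 1 and 3 together it was 0.040.

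Pdia4 (ERp72, a disulfide isomerase, chr6:47796141-47813430) had a signal of 118, 94.2 and 92.2 in AAV-GFP mice, 228, 122 and 267 in mice labelled obese, and 121, 76.7 and 79.4 in mice labelled nonobese. The 3 mice labelled obese lay above the other 6, although replicate 2 did so by less than 1 unit of signal. Mice labelled obese averaged 206 ± 75.3 and AAV-GFP mice 102 ± 14.4 (SD, n = 3 each), a ratio of 2.03. On the log2 scale this was 0.95 (SE 0.26, 95% CI 0.42 to 1.47, unadjusted p = 0.0011), and the FDR of 0.142 in limma did not pass the threshold of 0.1. The 2 high libraries were those rich in antibody transcript, and the part of plasma cells in the level of Pdia4 was not tested. In bulk tissue, fewer cells of a type and less RNA per cell cannot be told apart.

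Manf (a secreted ER stress-inducible neurotrophic factor, chr9:106838312-106891979) had a signal of 55.4, 34.7 and 38.6 in AAV-GFP mice, 56.7, 55.4 and 111 in mice labelled obese, and 37.6, 28.3 and 49.5 in mice labelled nonobese. Only replicate 3 labelled obese stood clear of the rest, and the lowest mouse labelled obese and the highest AAV-GFP mouse were equal to 3 digits. Against AAV-GFP the mice labelled obese had a log2 FC of 0.73 (SE 0.33, unadjusted p = 0.0338, FDR = 0.450, limma), which ran from 0.41 to 0.93 when single mice were left out.

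Sdf2l1 (a cofactor of BiP, chr16:17130138-17132383) had a signal of 0.997, 9.19 and 7.77 in AAV-GFP mice, 15.3, 5.90 and 13.5 in mice labelled obese, and 2.80, 1.05 and 10.9 in mice labelled nonobese. Replicates 1 and 3 labelled obese were again the highest, but these values rested on 4 to 68 reads per library and the groups overlapped. Its difference of 1.06 against AAV-GFP had a 95% CI from -0.62 to 2.74 (FDR = 0.710, limma), and leaving out single mice moved it between 0.32 and 1.49.

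Dnajb9 (ERdj4, a J-domain cofactor of BiP that restrains IRE1, chr12:44205559-44210326) had a signal of 22.4, 47.9 and 36.5 in AAV-GFP mice, 39.6, 64.5 and 63.2 in mice labelled obese, and 32.0, 51.3 and 24.3 in mice labelled nonobese. It was the only member highest in replicate 2 labelled obese, the library with the most Cre reads. Replicate 1, rich in Igkc, lay within the AAV-GFP range. Compared with AAV-GFP, mice labelled obese had a log2 FC of 0.66 (SE 0.36, FDR = 0.552, limma).

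Herpud1 (a component of ER-associated degradation, chr8:94386438-94395377) had a signal of 49.4, 36.0 and 64.1 in AAV-GFP mice, 34.9, 16.6 and 57.6 in mice labelled obese, and 43.6, 69.9 and 34.6 in mice labelled nonobese. It was the only member with a lower mean in mice labelled obese than in AAV-GFP mice, and the groups overlapped. The log2 FC of -0.57 (SE 0.38, FDR = 0.657, limma) did not pass the test, and without replicate 2 labelled obese it was -0.11.

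Of the transcription factors, Xbp1 (the IRE1 target, chr11:5520659-5525893) was the most variable. Its signal was 56.3, 56.7 and 43.7 in AAV-GFP mice, 77.6, 21.8 and 113 in mice labelled obese, and 46.9, 40.1 and 72.6 in mice labelled nonobese. The mice labelled obese thus held both the 2 highest values and the lowest of the 9 libraries, with the highest 5.18-fold the lowest. The log2 FC against AAV-GFP was 0.16 (SE 0.40, FDR = 0.931, limma), 0.84 without replicate 2 (FDR = 0.137) and -1.21 for replicate 2 on its own (FDR = 0.248), where the single library was assumed to vary like the other groups.

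Ddit3 (CHOP, a PERK and ATF4 target linked to cell death, chr10:127290774-127296288) had a signal of 21.2, 22.4 and 23.9 in AAV-GFP mice, 42.7, 13.4 and 40.7 in mice labelled obese, and 41.8, 17.0 and 23.3 in mice labelled nonobese. High values were not limited to the libraries rich in antibody, since replicate 1 labelled nonobese, with 106 Igkc reads, was the second highest. For mice labelled obese against AAV-GFP the log2 FC was 0.34 (SE 0.45, FDR = 0.854, limma). Leaving out single mice moved it between 0.061 and 0.86.

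Atf4 (the effector of PERK and the wider integrated stress response, chr15:80255184-80257541) varied least among the transcription factors. Its signal was 65.3, 70.9 and 90.3 in AAV-GFP mice, 69.1, 67.2 and 96.9 in mice labelled obese, and 51.8, 89.1 and 81.5 in mice labelled nonobese, and the 3 groups overlapped. The log2 FC of mice labelled obese against AAV-GFP was 0.03 (SE 0.26, 95% CI -0.51 to 0.58, FDR = 0.978, limma), and it took the opposite sign, at -0.032, when libraries were centred on their medians. Atf4 is largely controlled by translation, which these reads do not measure.

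**Figure D1:**
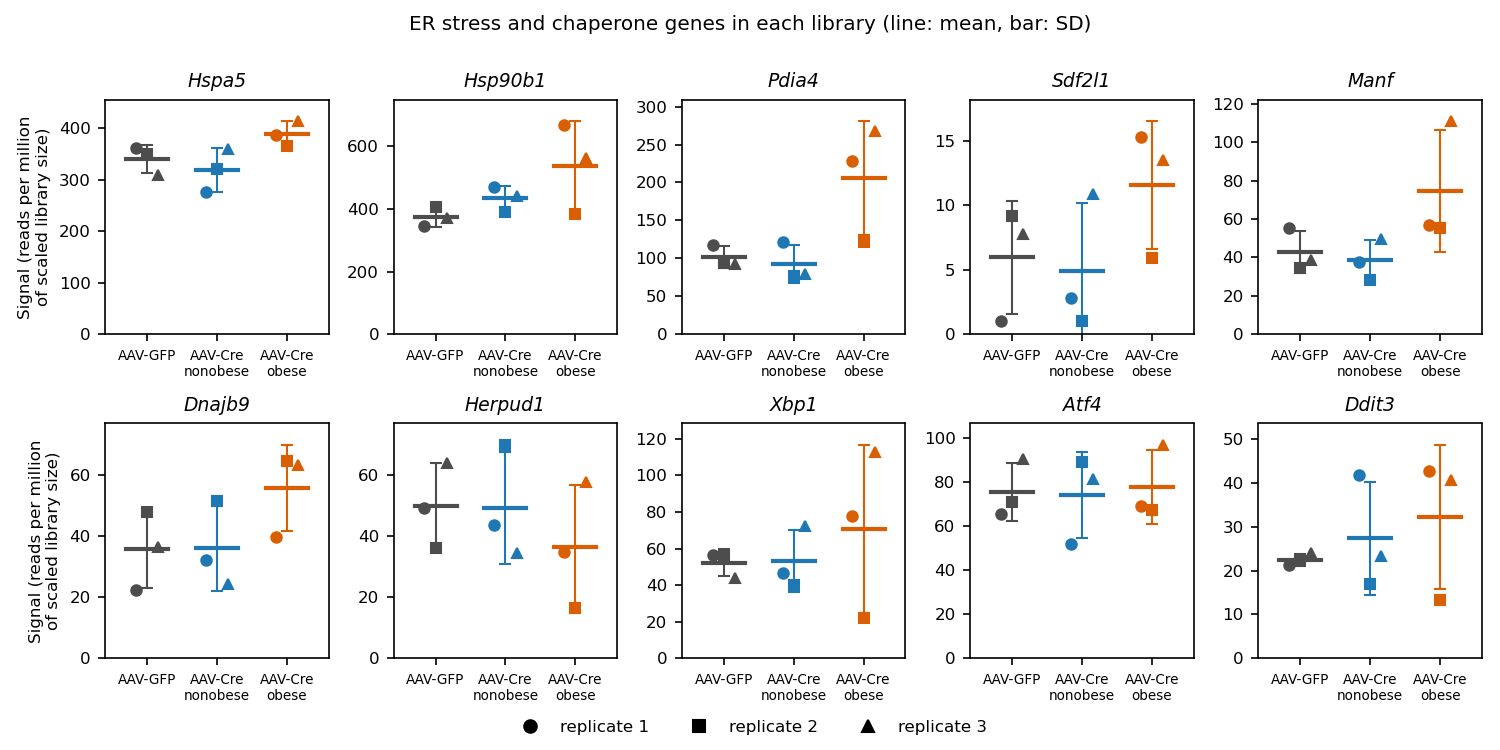
Signal (linear axis from 0) of each of the 10 genes in the 3 AAV-GFP mice, the 3 AAV-Cre mice labelled nonobese and the 3 labelled obese; points are libraries with symbols for replicates 1, 2 and 3, lines are means and bars are SD. For Pdia4 the circle and triangle labelled obese (228 and 267) sit far above all other points, and for Xbp1 the square labelled obese (21.8) is the lowest.

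Mice labelled obese against AAV-GFP gave no called member. With limma, 0 of 10 members had an FDR under 0.1, against 0.555% of all 13506 entries tested, and 3 of 10 (Hsp90b1, Pdia4 and Manf) were higher with an unadjusted p under 0.05, against 5.11% of entries. Of the other tools, run on reads recovered from the signal, the edgeR likelihood ratio test and DESeq2 each called Pdia4 (FDR = 0.0489 and 0.0235), against 1.93% and 2.04% of entries. The edgeR quasi-likelihood test called none (0.689% of entries). In 3 of 10 members (Hspa5, Pdia4 and Manf) the mice labelled obese lay wholly above AAV-GFP, against 7.18% of entries. The median log2 FC of the members was 0.41, and that of all entries -0.04. Without replicate 2 labelled obese, 2 members (Hsp90b1 and Pdia4) were called, against 5.27% of entries, and without replicates 1 and 3 together, none was.

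Mice labelled nonobese against AAV-GFP showed no member that passed the test. Log2 FCs ran from -0.32 for Sdf2l1 to 0.21 for Hsp90b1, with a median of -0.04 (all entries -0.02). No member was called by limma (0.0148% of entries), by the edgeR likelihood ratio (0.0444%) or quasi-likelihood test (0.0148%) or by DESeq2 (0.0148%), and none had an unadjusted p under 0.05 (2.27% of entries). The 95% CI was -0.42 to 0.22 for Hspa5, -0.15 to 0.58 for Hsp90b1 and -0.68 to 0.37 for Pdia4, so that a doubling of these 3 chaperones lay outside it. For Sdf2l1 (-1.99 to 1.36) and Ddit3 (-0.74 to 1.10) the interval did not exclude a doubling. These mice carried 19611 to 33105 Cre reads each.

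All AAV-Cre mice against AAV-GFP likewise gave no called member with limma (0.0222% of entries), the edgeR likelihood ratio (0.0518%) or quasi-likelihood test (0.0148%) or DESeq2 (0.0666%). Hsp90b1 alone fell under 0.05 before adjustment (log2 FC 0.35, SE 0.16, unadjusted p = 0.041, FDR = 0.999, limma), against 3.14% of entries. Its signal overlapped that of AAV-GFP (exact 2-sided permutation test, p = 0.131).

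The AAV-Cre subsets differed in Pdia4. Mice labelled nonobese had a lower signal than mice labelled obese (92.5 ± 25.1 and 206 ± 75.3, SD, n = 3 each), with a log2 FC of -1.10 (SE 0.26, 95% CI -1.63 to -0.57, FDR = 0.0484, limma). It was the only member called, 1 of 10 against 0.948% of all entries. The groups did not overlap, but the lowest mouse labelled obese and the highest labelled nonobese were at 122 and 121, and the smallest 2-sided p that an exact permutation test allows at this group size is 0.1. The call was lost with all mice kept, at an FDR of 0.357 without a variance trend and 0.122 with only the 2 groups in the fit. It was also lost without single mice, as the FDR was 0.256 without replicate 1 labelled obese, 0.265 without its replicate 3, 0.206 without replicate 2 labelled nonobese and 0.208 without its replicate 3. Without replicates 1 and 3 labelled obese together the log2 FC was -0.43 (FDR = 0.626).

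Manf was next (log2 FC -0.89, SE 0.33, unadjusted p = 0.0113, FDR = 0.269, limma), and 2 of 10 members had an unadjusted p under 0.05 in this comparison, both lower, against 6.26% of entries. In 3 of 10 members (Hspa5, Pdia4 and Manf) the mice labelled nonobese lay wholly below those labelled obese, against 6.65% of entries. Without replicate 2 labelled obese, Hsp90b1, Pdia4 and Manf were called, against 6.72% of entries. The comparisons that use the mice labelled obese share those 3 libraries.

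**Figure D2:**
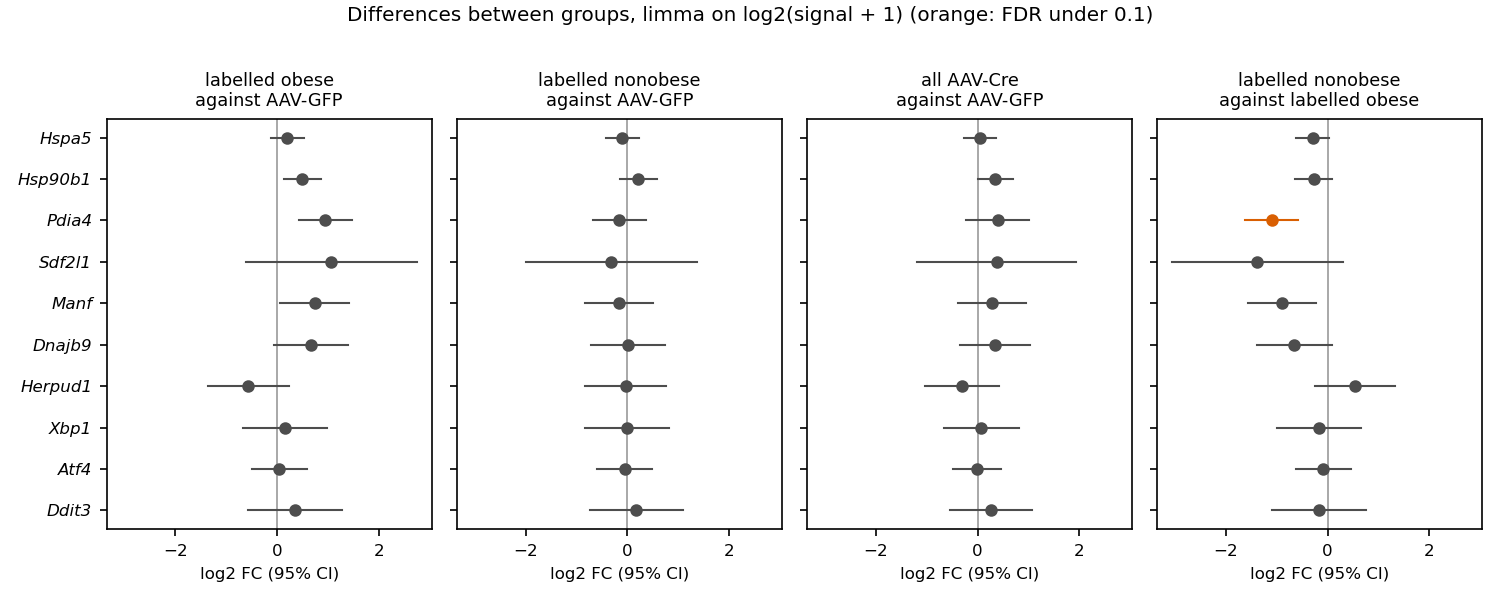
Log2 FC on the log2(signal + 1) scale, with 95% confidence intervals (CI) from limma, of the 10 genes in the 4 comparisons; orange marks an FDR under 0.1. Pdia4 in mice labelled nonobese against those labelled obese (-1.10) is the only orange point, and in mice labelled nonobese against AAV-GFP all 10 intervals include 0.

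The members were set beside antibody and vector transcript library by library. Each member was centred and scaled over the 9 libraries and the 10 were averaged, in units of SD. The mean was 1.35 in replicate 3 labelled obese, which had the most Igkc reads, and 0.70 in replicate 1, which had the second most. In the other 7 libraries it lay between -0.46 and -0.07. The lowest of all, -0.46, was replicate 2 labelled obese, which had the most Cre reads. The highest of those 7, -0.07, was replicate 3 labelled nonobese, which had the second most Cre reads (33105). Replicates 1 and 3 labelled obese, with the most Igkc reads, had the fewest Cre reads of the AAV-Cre mice. Among mice labelled nonobese the means were -0.43, -0.39 and -0.07, and among AAV-GFP mice, with almost no Cre or Igkc, -0.41, -0.15 and -0.14.

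Replicates 1 and 3 labelled obese were the 2 highest of the 9 libraries for 6 of 10 members (Hspa5, Hsp90b1, Pdia4, Sdf2l1, Manf and Xbp1), against 9.34% of all entries. These 2 libraries also had a higher summed signal of microglial and myeloid markers (8 of 9 in the table), which was 483 and 548, against 98.9 in replicate 2 labelled obese, 89.3 to 116 in AAV-GFP mice and 81.7 to 100.3 in mice labelled nonobese. Of the astrocyte markers, 2 of 6 were called higher in mice labelled obese than in AAV-GFP mice (0.555% of entries called in either direction), and their sums were 1202 to 1918 and 956 to 1076. Of the oligodendrocyte markers 4 of 6 were lower with an unadjusted p under 0.05 (4.78% of entries), with sums of 835 to 1079.8 and 1179 to 1782. T cell markers (5 of 7 in the table) summed to 5.67 to 91.1 in mice labelled obese, 2.99 to 4.79 in AAV-GFP mice and 0.854 to 2.88 in mice labelled nonobese. Endothelial markers (5 of 5) summed to 110.5 to 149, 61.6 to 96.9 and 76.0 to 92.0 in the same order, and tanycyte and ependymal markers (3 of 6) to 57.0 to 168, 29.5 to 55.3 and 25.8 to 58.4. Vim made up most of the tanycyte and ependymal sum in replicates 1 and 3 labelled obese, at 132 and 99.2. Col23a1 and Dio2 overlapped between the groups, and Dio2 was lowest of the 9 libraries in replicate 3 labelled obese, at 0.232. The part of these cell types in the chaperone levels was not tested.

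**Figure D3:**
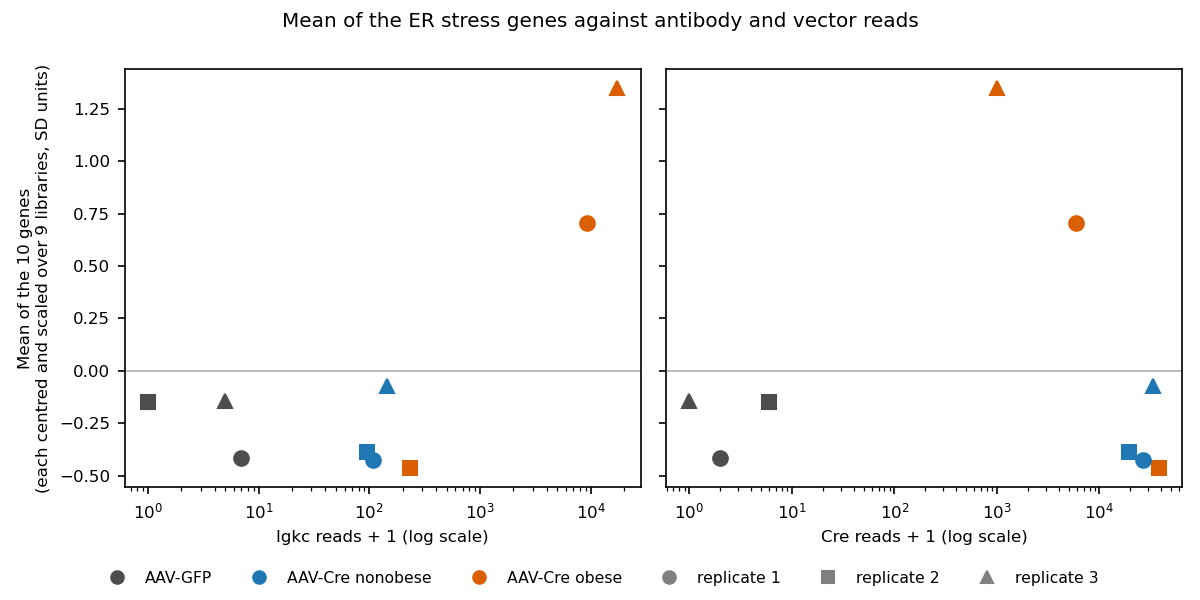
Mean of the 10 genes (each centred and scaled over the 9 libraries, SD units) against Igkc reads + 1 on the left and Cre reads + 1 on the right, both on log axes; colours are groups and symbols are replicates. The 2 libraries with 9220 and 17359 Igkc reads have means of 0.70 and 1.35. The library with the most Cre reads (37704) has the lowest mean, -0.46, and that with the second most (33105) has a mean of -0.07.

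Genes of the pathway outside the 10 were taken from 6 lists with 102 genes tested. Against AAV-GFP, the mice labelled obese had 0 of 102 called by limma (0.555% of entries), and 9 of 102 were higher and 2 lower with an unadjusted p under 0.05 (5.11% and 4.78% of entries). The edgeR likelihood ratio test called 2 of the 102 (1.93% of entries), DESeq2 5 (2.04%) and the quasi-likelihood test none (0.689%). Without replicate 2 labelled obese limma called 6, against 5.27% of entries. By list, 3 of 19 ER chaperones and folding enzymes, 1 of 17 genes of ER-associated degradation, 2 of 20 of translocation and N-glycosylation, 2 of 13 stress sensors and transducers, 1 of 21 ATF4 and CHOP targets and 0 of 12 cytosolic and mitochondrial chaperones were higher at that p. The medians of these lists were 0.23, 0.15, 0.19, 0.52, 0.12 and -0.19 log2 FC. Mice labelled nonobese had none of the 102 at an unadjusted p under 0.05 against AAV-GFP (2.27% of entries).

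Edem1 is a lectin-like protein that routes misfolded glycoproteins to degradation. It was the only pathway gene called in the main limma fit, in mice labelled nonobese against labelled obese. Its signal was 8.48, 9.96 and 13.4 in AAV-GFP mice, 60.1, 22.5 and 36.5 in mice labelled obese, and 13.1, 1.57 and 9.60 in mice labelled nonobese. Each mouse labelled obese lay above the other 6 mice. The log2 FC of mice labelled nonobese against labelled obese was -2.37 (SE 0.60, FDR = 0.0813, limma), and 1 of 102 called is near the 0.948% of all entries. The call was lost with a pseudocount of 0.1, without a variance trend, with only the 2 groups in the fit and in the edgeR quasi-likelihood test. It was lost too on leaving out any single mouse other than replicate 2 labelled obese and replicate 1 labelled nonobese. In this comparison the edgeR likelihood ratio test called 4 of the 102 (2.95% of entries), DESeq2 6 (2.88%) and the quasi-likelihood test 1 (Serp1, 1.04%), and limma without replicate 2 labelled obese called 11 (6.72%). Against AAV-GFP the mice labelled obese were 1.72 higher on the log2 scale, with an FDR of 0.298.

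Nfe2l2 (NRF2, the oxidative stress factor and a PERK substrate) had a signal of 11.97, 6.70 and 3.69 in AAV-GFP mice, 46.3, 15.9 and 68.8 in mice labelled obese, and 15.0, 3.14 and 11.1 in mice labelled nonobese. Mice labelled obese lay above the other 6, with a log2 FC against AAV-GFP of 2.30 (SE 0.63, FDR = 0.147, limma). Serp1, which stabilizes membrane proteins at the translocon, had a mean of 34.1 in mice labelled obese and 13.7 in AAV-GFP mice (log2 FC 1.19, FDR = 0.395) and 9.23 in mice labelled nonobese. Atf3, a stress-induced factor below ATF4, had 125, 3 and 69 reads in mice labelled obese, 0, 3 and 0 in AAV-GFP mice, and 7, 0 and 4 in mice labelled nonobese. Atf3 reads were therefore found almost wholly in replicates 1 and 3 labelled obese. Eif2ak2 (PKR, an interferon-induced sensor of double-stranded RNA) had its highest signal, 203, in replicate 1 labelled obese and lay between 8.96 and 78.5 in the other 8 libraries.

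The rest of the named pathway genes did not pass the test against AAV-GFP. In mice labelled obese, Cnpy2 (log2 FC 0.88, FDR = 0.356), Stt3a of the oligosaccharyltransferase (0.60, FDR = 0.450), Derl3 (1.76, FDR = 0.577) and the BH3-only gene Bcl2l11 (1.51, FDR = 0.617) had positive differences. Negative differences were found for the ER oxidase Ero1b (-1.30, FDR = 0.543) and for the heat shock genes Dnajb1 (-0.90, FDR = 0.449) and Bag3 (-1.35, FDR = 0.579). Replicates 1 and 3 labelled obese were the 2 highest libraries for 9 of 21 ATF4 and CHOP targets, 5 of 13 stress sensors and transducers, 5 of 19 ER chaperones, 3 of 17 degradation genes, 3 of 20 translocation genes and 0 of 12 cytosolic and mitochondrial chaperones, against 9.34% of all entries.

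**Figure D4:**
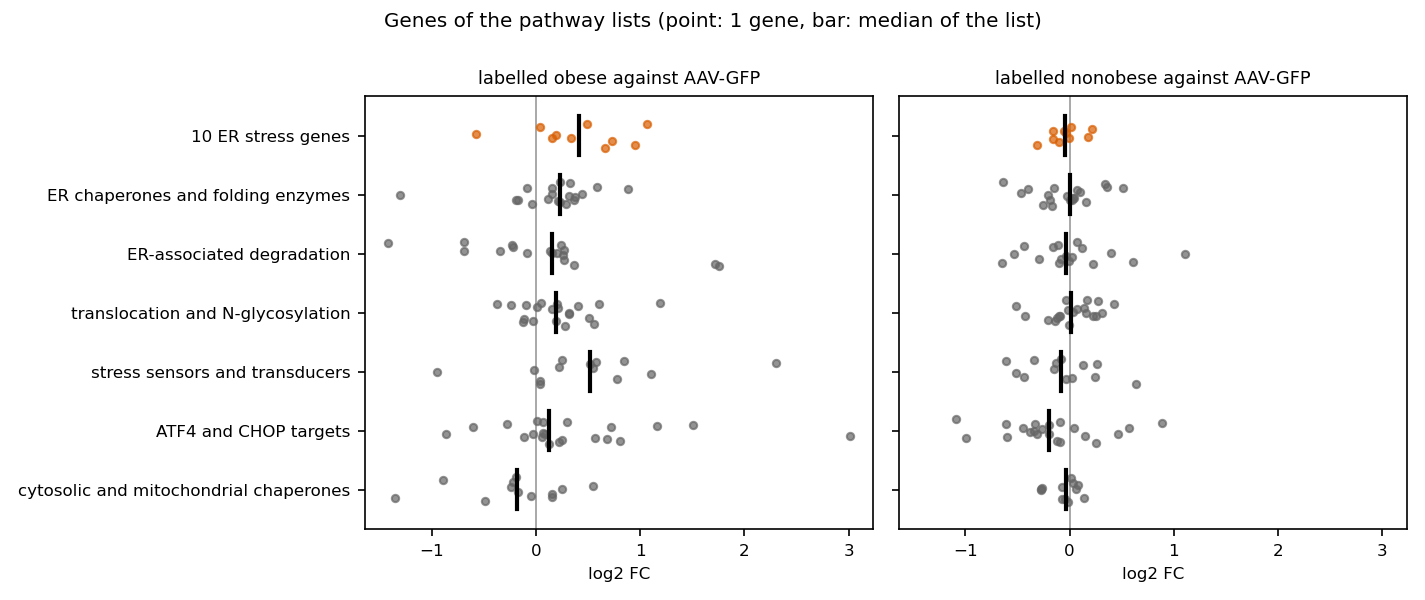
Log2 FC against AAV-GFP of the 10 genes (orange) and of the 102 other genes in 6 pathway lists (grey), for mice labelled obese on the left and nonobese on the right; a point is a gene and a bar the median of its list. The median of the 10 genes is 0.41 on the left and -0.04 on the right, and that of the cytosolic and mitochondrial chaperones is -0.19 on the left.

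The members did not vary as a single block. Over the 9 libraries, which share groups and 2 libraries that stood apart, Pearson's r on the log2 scale was 0.81 for Manf and Pdia4, 0.80 for Ddit3 and Hsp90b1 and 0.77 for Pdia4 and Hsp90b1. It was -0.30 for Herpud1 and Sdf2l1, the lowest of the 45 pairs, and -0.14 for Ddit3 and Atf4. Among the 9765 entries with a mean signal of at least 10, those most like the mean of the members included Ctsd (r = 0.99), Itm2b (0.98), Apoe and Plxnb2 (both 0.96). Ctsd encodes a lysosomal protease. The antibody heavy chain segments Ighv1-59 and Ighv1-82 and the immunoproteasome subunit Psmb9 were also listed, but they reached that mean signal through replicates 1 and 3 labelled obese alone, so their likeness was set by the filter. Ighv1-59 had a signal of 20.2 and 268 there and 0 in the other 7 libraries, and Psmb9 40.7 and 51.3 there and at most 1.07 elsewhere. Ctsd had a signal of 296 and 427 in replicates 1 and 3 labelled obese and between 109 and 154 in the other 7 libraries. Apoe ranged from 1659 to 2206 in those 7 libraries and was 3995 and 6132 in replicates 1 and 3 labelled obese.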

How the data were processed

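RNA-seq of 9 laser-captured mediobasal hypothalamus libraries (500 pg RNA each, stranded pico-input kit, single-end 50-base reads) was analysed. Per the submitters' processing notes, the authors used CASAVA 1.7, TopHat2 2.0.11 on GRCm38, HTSeq, edgeR and limma. The strand setting of the counting is not given in the sources used here. The deposited signal is, by the authors, reads divided by a TMM-scaled library size. It sums to 954378 to 1046542 per library and is not plain CPM. The tests were planned for CPM values and kept for signal. All values were whole multiples (tolerance 0.02 reads) of 1 read, so reads were recovered for count tests. The authors' own tables of comparisons were not used.

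Tests used limma 3.58.1 in R 4.3.3 on log2(signal + 1), with the 3 groups in a fit (2 groups for all AAV-Cre mice), a variance trend and Benjamini-Hochberg adjustment over the 13506 entries that reached a signal of 1 in 3 or more libraries. A call is FDR under 0.1. Fold changes on this scale understate those of low genes. Alternatives were pseudocounts of 0.1 and 5, no filter and a filter at 5, median centring, quantile normalization, no variance trend, another choice of groups in the fit, the replicate number as a block, FDR under 0.05, edgeR 4.0.16, DESeq2 1.42.0, and leaving out mice. The statistics were tested on simulated data.

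The members and lists were chosen with earlier results of these data known. All members are named. Of each pathway list, called genes and the 2 with the largest change in mice labelled obese against AAV-GFP are named, as are the 8 entries most like the mean of the members, of which 1 is not reported here. Replicate numbers come from the titles, mice are separate animals, and a chi-square check of reads found no duplicate library. Gene symbols were matched for 13446 of 13586 identifiers.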

Additional observations from a re-analysis of the deposited data

Results flagged for a closer look

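Of 22 genes examined for a library that stands apart among the 6 AAV-Cre mice, 2 were flagged. About 1 in 20 is flagged by chance, a rate that need not hold for the pathway genes. These, Eif2ak2 among them, were picked for a call or for a large change in mice labelled obese. Manf in replicate 3 labelled obese, at a signal of 111, was separated from the next mouse, at 56.7, by most of the range of the 6 mice. Eif2ak2 in replicate 1 labelled obese, at 203, was separated in the same way from 78.5 in replicate 3. A difference between the AAV-Cre subsets passed the test for Pdia4, with a log2 FC of -1.10 in mice labelled nonobese against labelled obese, and for Edem1, at -2.37.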

How the results depend on the processing

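In mice labelled obese against AAV-GFP the number of members called was 0, and 1 (Pdia4) with a pseudocount of 5, the replicate block, the edgeR likelihood ratio test or DESeq2. Leaving out 1 mouse gave 0 to 2. In mice labelled nonobese against labelled obese it was 1, and 0 without a variance trend, with only the 2 groups in the fit, and without replicates 1 and 3 labelled obese together, with a range of 0 to 3 over single mice. Against AAV-GFP it was 0 for mice labelled nonobese and for the 6 AAV-Cre mice under each alternative run. Other pathway genes called in mice labelled obese against AAV-GFP numbered 0, and 1 with a pseudocount of 5 or quantile normalization, 2 with the replicate block, the likelihood ratio test or without replicates 1 and 3 labelled obese together, 5 with DESeq2, and 0 to 6 over single mice (6 without replicate 2 labelled obese, where 5.27% of all entries were called). Between the subsets they numbered 1, and 0 at FDR under 0.05, a pseudocount of 0.1, no variance trend or only 2 groups, 2 with a pseudocount of 5 or the replicate block, 3 without replicates 1 and 3 labelled obese together, 4 with the likelihood ratio test, 6 with DESeq2, and 0 to 11 over single mice (11 without replicate 2 labelled obese, where 6.72% of all entries were called). The causes were not tested. Deviations of same-numbered mice correlated at -0.02 to 0.09 (median 0.03, 9 pairs), and those of differently numbered mice at -0.09 to 0.04 (median -0.01, 18 pairs). These values do not settle whether the replicate numbers mark matched mice, and the main fit did not pair them.

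Signs turned only where a member had not been called. Without replicates 1 and 3 labelled obese together, the log2 FC for all AAV-Cre mice against AAV-GFP was -0.049 for Hspa5, -0.049 for Pdia4, -0.16 for Sdf2l1, -0.022 for Manf, -0.31 for Xbp1 and -0.043 for Ddit3. In mice labelled obese against AAV-GFP it was then -1.21 for Xbp1, -0.15 for Atf4 and -0.71 for Ddit3, and between the subsets 0.17 for Hsp90b1, 1.20 for Xbp1, 0.10 for Atf4 and 0.88 for Ddit3. Median centring gave -0.032 for Atf4 in mice labelled obese against AAV-GFP. With edgeR (both tests) and DESeq2, Xbp1 in mice labelled nonobese against AAV-GFP was at 0.027, 0.027 and 0.026, and Atf4 in all AAV-Cre mice at 0.0072, 0.0068 and 0.018. Quantile normalization gave -0.010 for Dnajb9 in mice labelled nonobese against AAV-GFP. Leaving out single mice turned the sign within these ranges: in mice labelled nonobese against AAV-GFP, -0.19 to 0.00093 for Hspa5, -1.06 to 0.26 for Sdf2l1, -0.36 to 0.038 for Manf, -0.25 to 0.17 for Xbp1, -0.20 to 0.19 for Atf4, -0.17 to 0.46 for Ddit3, -0.31 to 0.18 for Herpud1 and -0.28 to 0.25 for Dnajb9. For all AAV-Cre mice they were -0.020 to 0.12 for Hspa5, -0.37 to 0.80 for Sdf2l1, -0.13 to 0.33 for Xbp1 and -0.10 to 0.13 for Atf4. For mice labelled obese against AAV-GFP they were -0.32 to 0.84 for Xbp1 and -0.13 to 0.17 for Atf4. Between the subsets they were -0.85 to 0.31 for Xbp1, -0.23 to 0.15 for Atf4 and -0.68 to 0.12 for Ddit3. Depth limited Sdf2l1 most, with 4 reads in 2 of 9 libraries.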
